A study of Mus musculus with 2 samples.

Results

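The proteasome genes of lymph node B cells were compared between wild-type mice and mice without a working Ccr7 gene. The members were taken by name: every probe, other than control spots, on both arrays whose gene is called Psm followed by a, b, c, d, e, f or g and a number. This gave 67 of 41174 probes, for 43 genes. A further 2 probes, for Psmc3ip, a meiotic recombination protein, fit the pattern only up to a suffix and were left out. A filter on dim probes left 63 probes and 42 of the 17686 genes tested. The gene it removed was Psma8, the testis form of a 20S alpha subunit, whose probe was not well above background in any channel.

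The B cells came from peripheral lymph nodes and were sorted by flow cytometry, with no culture before RNA isolation. The wild-type animals were C57BL/6J. The knock-out strain was B6.129P2(C)-Ccr7tm1Rfor/J, in which Ccr7 carries a targeted mutation, and no other allele or treatment is given for either genotype. The animals' age, which part of Ccr7 the allele removes and whether the mice were littermates are not given in the sources used here. Of 12 sorted samples, 6 per genotype, RNA was combined in pools of 3, so there were 2 pools per genotype. Each of 2 two-colour arrays held 1 wild-type and 1 knock-out pool. The knock-out was the Cy5 channel of array 1 and the Cy3 channel of array 2. A positive log2 ratio means more signal in the knock-out, and n = 2 arrays for every ratio. In pooled bulk RNA, a change in the share of some cells and a change in RNA per cell cannot be told apart.

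The proteasome is the protease complex that degrades ubiquitin-tagged proteins in the cytosol and nucleus. Its barrel-shaped 20S core is built from rings of alpha and beta subunits, and the active sites sit on the beta subunits Psmb5, Psmb6 and Psmb7. The 19S cap binds and unfolds the substrate. Interferon-gamma induces Psmb8, Psmb9 and Psmb10, which take the places of Psmb5, Psmb6 and Psmb7 in newly assembled cores, and also Psme1 and Psme2, which form the PA28 activator. Such cores, called immunoproteasomes, are known from lymphocytes and supply peptides to MHC class I.

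The targeted gene was read first. Ccr7, the receptor for the chemokines Ccl19 and Ccl21, gave a normalized log2 intensity of 12.55 in wild-type and 11.44 in knock-out on array 1, and 12.40 and 11.66 on array 2. Its log2 ratio was -0.93 (moderated SE 0.15, n = 2; limma adjusted p = 0.143), which is 1.90-fold lower. The signal was lower in both knock-out pools, as the labels say, but it was still well above background there.

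Between 58.4% and 68.8% of the spots of a channel were well above background. No spot was saturated. Both arrays were read at a high and a low scanner gain, and a flag in the files marks bright spots whose value was computed from the low-gain reading. This low-gain flag was set in at least 1 channel at 1958 of 43379 spots on array 1 and 1703 on array 2. It touched 21 of the 42 members tested but 1623 of all 17686 genes. It was set in all 4 channels for each of the 5 interferon-inducible members. The 8 B-cell markers, among them Cd79a and Ms4a1, were all tested, at 11.20 to 17.32 on the log2 scale, and none passed the test. Their summed linear signal was 258000 (wild-type) and 469000 (knock-out) on array 1 and 479000 and 297000 on array 2, higher in Cy5 on both. Of the 8, 3 were higher on both arrays, 4 had opposite signs and 1, the B-lineage factor Pax5, read -0.79 and -0.86 (limma adjusted p = 0.142). Of the 8 T-cell markers, 5 were lower on both arrays (30.0% of all genes were) and 0 higher on both (24.2%). Their summed linear signal was 12700 (wild-type) and 11200 (knock-out) on array 1 and 15700 and 14800 on array 2. Most of that sum came from Cd2, at 13.26 to 13.78 on the log2 scale, while the other markers of the list stood at 6.60 to 8.66. The 4 plasma-cell markers summed to 3660 and 5780 on array 1 and to 5970 and 11400 on array 2, and Jchain, the joining chain of polymeric antibodies, was higher in knock-out on both arrays (log2 ratio 1.81, SE 0.13, limma adjusted p = 0.0179). The list was mixed: Xbp1 was also higher on both (0.55 and 0.85), Sdc1 was lower on both (-0.13 and -1.15) and Prdm1 had opposite signs (-0.59 and 0.10). Jchain passed the threshold under 5 of 13 alternatives and missed it under 8, with adjusted p from 0.000142 to 1. The myeloid and dendritic list (8 of 9 tested, without S100a8) summed to 32700 and 37600 in wild-type and 29400 and 30400 in knock-out. Most of the sum came from Cst3 (14.29 to 14.79 on the log2 scale). This list was mixed too: 2 of the 8 were higher on both arrays, 2 lower on both and 4 had opposite signs. The NK list (3 of 4 tested, without Ncr1) summed to 581 and 528 in wild-type and 486 and 394 in knock-out, lower on both arrays. These markers were dim, at 6.80 to 8.23 on the log2 scale. Of the 3, 2 were lower on both arrays and 1 had opposite signs. The 4 stroma and endothelium markers summed to 2290 to 2730. S100a8 and Ncr1 did not pass the filter on dim probes. The part of other cell types in the ratios below was not tested.

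No proteasome member passed the threshold of 0.05 in the limma fit after Benjamini-Hochberg adjustment over all genes. The count was 0 of 42, against a background of 0.102% of all genes (18 of 17686). The smallest adjusted p among members was 0.337. At an unadjusted p under 0.05, 3 members were higher (Psmb9, Psma3 and Psma4), against 3.15% of all genes, and 1 was lower (Psmc5), against 5.97%. In the fit on single probes the count was 0 of 63, against 0.119% of all probes (31 of 25975), with 6 probes higher at an unadjusted p under 0.05 (3.70% of all probes) and 1 lower (6.13%). The log2 ratios of the members ran from -0.38 to 0.51, with a median of 0.05 against -0.01 over all genes.

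The differences were small as well as unresolved. Of the 42 members, 38 had a mean within 0.25 of 0 on the log2 scale (90.5%, against 82.2% of all genes). None reached 1.5-fold, and neither did 98.2% of all genes. The 95% interval of the moderated fit lay inside a 2-fold difference in either direction for 42 of 42 members. The same held for 98.0% of all genes, and these intervals draw most of their spread from all genes together (6.18 prior degrees of freedom against 1 residual). They describe 2 pairs of pools and do not measure the spread between the 12 sorted samples.

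**Figure D1:**
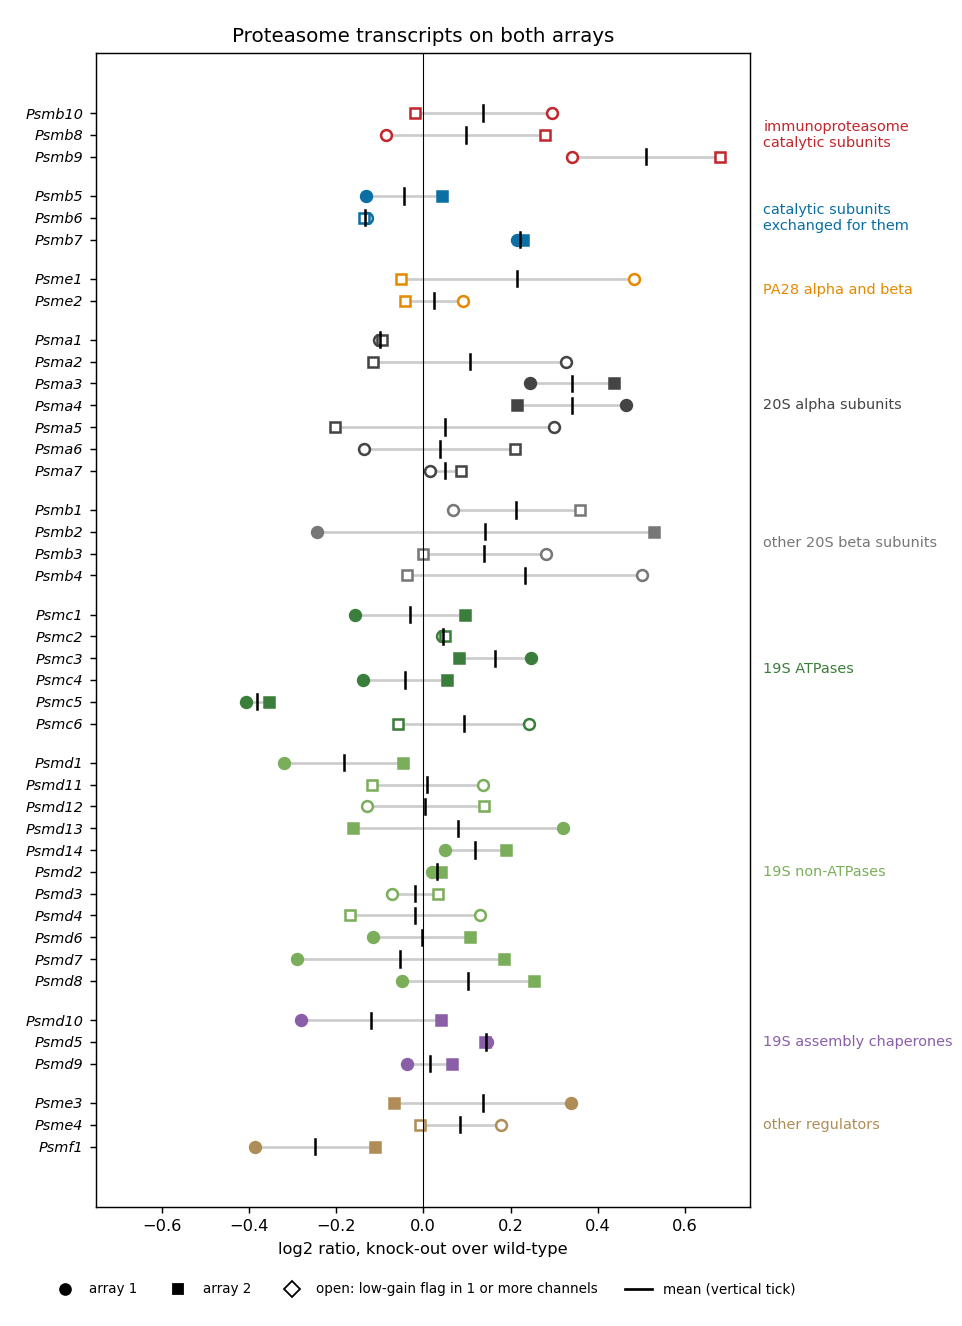
Log2 ratio, knock-out against wild-type (horizontal axis), of the 42 members tested, grouped by role, with a circle for array 1, a square for array 2 and a vertical tick for the mean. Open symbols mark genes with the low-gain flag in at least 1 channel. The symbols of 26 members fall on both sides of 0, and Psmb9 has the highest mean at 0.51.

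Both arrays gave the same sign for 16 of the 42 members. Of these, 11 were higher on both (24.2% of all genes were) and 5 lower on both (30.0% of all genes). The other 26 had opposite signs, against 45.8% of all genes. Of the 63 member probes, 23 were higher on both arrays (36.5%, against 25.2% of all probes) and 8 lower on both (12.7%, against 30.0%). Among the 40 with no low-gain channel, 18 were higher (45%, against 25.3% of all such probes) and 6 lower (15%, against 30.6%). Among the 23 with one, 5 were higher (21.7%, against 24.6%) and 2 lower (8.7%, against 21.9%). Some genes have several probes here, so these are not counts of genes, and they were not tested. Since the dyes were swapped, opposite signs mean that the same colour was brighter on both arrays, and a dye effect and a difference between pools cannot be told apart there. Among the 21 members with the low-gain flag, 11 were higher in knock-out on array 1 and lower on array 2 (Cy5 brighter on both), and 4 the reverse. Among the 21 without it, 2 showed the first pattern and 9 the reverse. Over all genes the first pattern took 556 of 1623 flagged genes and 3856 of 16063 unflagged ones, and the reverse took 313 and 3372. Whether the scaling of the scans sets these signs was not tested.

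**Figure D2:**
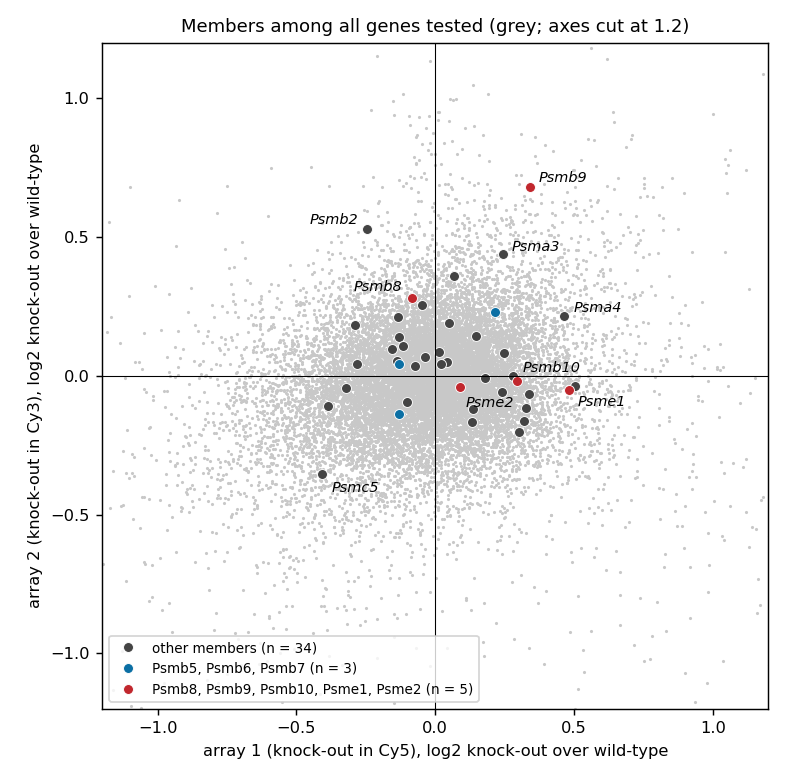
Log2 knock-out over wild-type on array 1 (horizontal) against array 2 (vertical) for all 17686 genes tested in grey, with the axes cut at 1.2, and for the members in colour. Psmb9 is the inducible member with the same sign on both arrays, at 0.34 and 0.68, while Psme1 and Psmb10 lie to the right at about 0 on array 2.

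The comparison within the catalytic core depends on probes that tell an inducible subunit from its homologous constitutive partner. The probe sequences of 2 such pairs are therefore shown. They are 60 bases long, 5′ to 3′, as the array files give them, in lower case. Capitals mark the bases that are the same in the partner at the best ungapped alignment a script found.

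Psmb5: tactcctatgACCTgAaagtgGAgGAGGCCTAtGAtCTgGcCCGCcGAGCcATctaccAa

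Psmb8: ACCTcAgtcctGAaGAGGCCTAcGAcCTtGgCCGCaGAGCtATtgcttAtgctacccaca

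Psmb6: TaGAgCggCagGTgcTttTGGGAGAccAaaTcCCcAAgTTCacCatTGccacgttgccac

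Psmb9: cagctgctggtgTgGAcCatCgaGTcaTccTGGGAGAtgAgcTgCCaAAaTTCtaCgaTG

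The Psmb5 and Psmb8 probes overlapped by 50 bases, of which 31 (62.0%) were the same. The Psmb6 and Psmb9 probes overlapped by 48 bases, of which 27 (56.2%) were the same. In both pairs the identical bases came in short runs that were broken by mismatches. The probes were compared only with each other, so whether a probe also binds the transcript of the partner was not tested. The Psmb8 probe shown is the dimmer of its probes, not the one that stands for the gene, and the probes of Psmb7 and Psmb10 were not compared. On mm8, the build the files name, the Psmb5 probe lies at chr14:53568529-53568588, the Psmb8 probe at chr17:33811038-33811097, the Psmb6 probe at chr11:70343707-70343766 and the Psmb9 probe at chr17:33792517-33792576. The files do not say in which exon or part of the transcript a probe lies.

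Psmb9 (also known as LMP2) had the highest mean of all members. Its normalized log2 intensity was 14.79 in wild-type and 15.13 in knock-out on array 1, and 14.67 and 15.35 on array 2. The signal was higher in knock-out on both arrays, as it was for 24.2% of all genes. The log2 ratios of 0.34 and 0.68 averaged 0.51 (moderated SE 0.14, n = 2; limma adjusted p = 0.337), or 1.42-fold (95% interval 1.13 to 1.80). The difference did not pass the test over all genes, and 4 of 4 channels of this probe carried the low-gain flag.

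Psmb8 (LMP7), the inducible partner of Psmb5, had 2 probes, and the pools of the genotypes overlapped on the brighter of them. That probe gave 15.31 in wild-type and 15.22 in knock-out on array 1, and 15.09 and 15.37 on array 2. Its log2 ratios of -0.09 and 0.28 had opposite signs (mean 0.10, SE 0.14, adjusted p = 0.941). The other probe, whose sequence is printed above, gave 0.03 and 0.37. On both probes the ratio was higher on array 2 than on array 1.

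Psmb10 (MECL-1), the inducible partner of Psmb7, stood at 15.40 in wild-type and 15.70 in knock-out on array 1. On array 2 it stood at 15.49 and 15.47. The ratios of 0.29 and -0.02 averaged 0.14 (SE 0.14, adjusted p = 0.883). The difference on array 1 was absent on array 2.

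The constitutive catalytic subunits did not pass the test either. Psmb5, which carries the chymotrypsin-like site, gave 13.41 in wild-type and 13.27 in knock-out on array 1 and 13.30 and 13.34 on array 2, a mean ratio of -0.04 (SE 0.13, adjusted p = 0.979). Psmb6, the caspase-like subunit, gave 14.47 and 14.34 on array 1 and 14.28 and 14.14 on array 2, a mean ratio of -0.13 (SE 0.13, adjusted p = 0.869). Psmb7, the trypsin-like subunit, gave 12.67 and 12.89 on array 1 and 13.21 and 13.44 on array 2, a mean ratio of 0.22 (SE 0.13, adjusted p = 0.687). Psmb6 and Psmb7 had nearly the same ratio on both arrays, one lower and one higher in the knock-out, and neither passed the test.

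**Figure D3:**
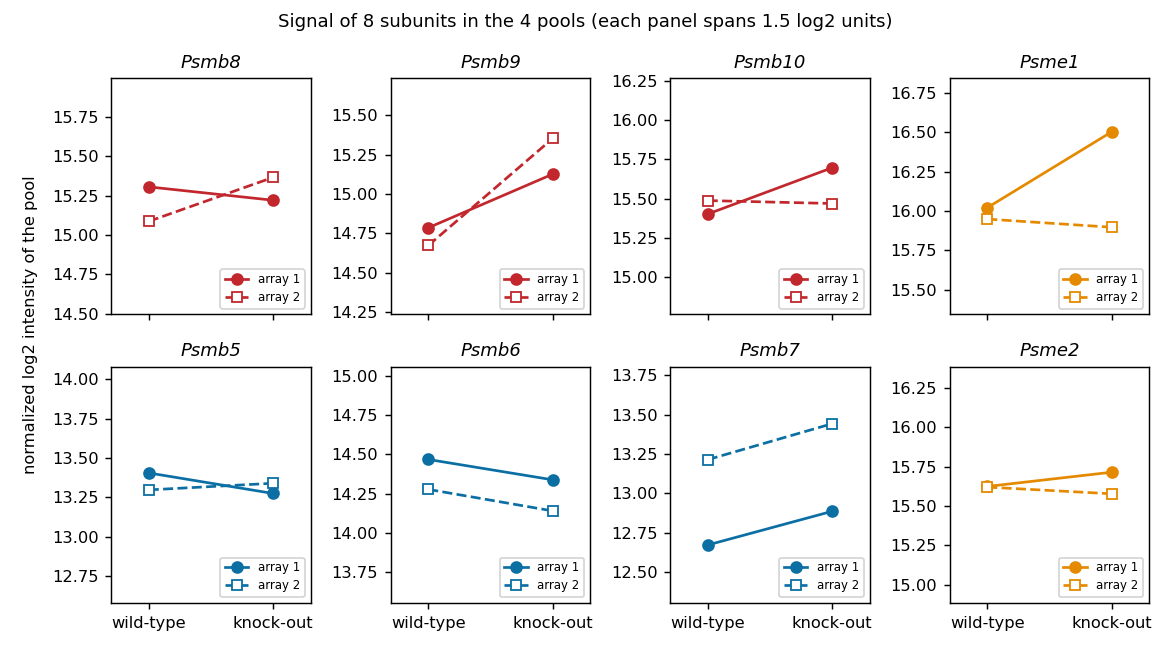
Normalized log2 intensity (vertical axis, each panel 1.5 log2 units high) of 8 subunits in the wild-type and knock-out pool of array 1 (filled, solid line) and array 2 (open, dashed line). Levels are compared only within a panel, since each panel is a different probe. Psmb9 and Psmb7 are higher and Psmb6 is lower in the knock-out on both arrays, while the lines of Psmb8, Psmb10, Psme1, Psme2 and Psmb5 run in opposite directions.

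Set pair by pair, the ratio of the inducible subunit minus that of the subunit it replaces was largest for Psmb9 and Psmb6, at 0.47 on array 1 and 0.82 on array 2. For Psmb8 and Psmb5 it was 0.05 and 0.24. For Psmb10 and Psmb7 it was 0.08 and -0.25. These differences describe 2 arrays and were given no test. On array 1 the sign turned for both of the last pairs in other versions of the same spots. With the scanner program's log ratio, Psmb8 minus Psmb5 was -0.36 and 0.45, and Psmb10 minus Psmb7 was -0.23 and -0.11. In the authors' deposited value table these were -0.23 and 0.36, and -0.10 and -0.20. Psmb9 minus Psmb6 stayed positive, at 0.38 and 0.86 with the scanner program's log ratio and 0.50 and 0.86 in the authors' deposited table.

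Psme1 and Psme2 encode the alpha and beta chains of PA28, the ring that opens the core to peptides. Psme1 gave 16.02 in wild-type and 16.50 in knock-out on array 1 and 15.95 and 15.90 on array 2. Its ratios of 0.48 and -0.05 (mean 0.22, SE 0.16, adjusted p = 0.792) were among the 4 most discordant of all members. Psme2 gave 15.63 and 15.72 on array 1 and 15.62 and 15.58 on array 2, with ratios of 0.09 and -0.04 (mean 0.02, SE 0.13, adjusted p = 0.987). A second Psme2 probe gave -0.04 and 0.02. In the main setting neither chain of PA28 had the same sign on both arrays.

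As a group, the 5 interferon-inducible members had a median log2 ratio of 0.29 on array 1 and -0.02 on array 2. The 31 constitutive core and cap subunits had medians of 0.02 and 0.05. The inducible median therefore exceeded the constitutive one by 0.27 on array 1 and fell short of it by 0.07 on array 2, and for the mean of both arrays the difference was 0.09. Over all genes the medians were -0.005 and -0.02. On array 1 the difference was 0.03 with the scanner program's log ratio and -0.05 in the authors' deposited table, so it did not hold across versions of the same spots. With 2 arrays the smallest exact sign-flip p is 0.5, so no test was made. Of the 5, only Psmb9 was higher on both arrays in the main setting, 0 were lower on both and 4 had opposite signs. With the scanner program's log ratio, 3 were higher on both (Psmb9, Psmb10 and Psme1), 0 were lower on both and 2 had opposite signs.

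The treatment of the brightest spots changed the values of these 5 genes. With the flagged spots kept but given no weight in the loess curve, an alternative chosen after seeing the data, Psmb8 read 0.12 and 0.18 and Psmb9 read 0.52 and 0.59 on arrays 1 and 2, so that the arrays came closer. In the same setting Psme1 read 0.75 and -0.19 and Psmb10 read 0.52 and -0.13, so that they moved apart. With the scanner program's log ratio Psmb8 read -0.38 and 0.42, so that its arrays moved apart. In the authors' deposited value table Psmb8 read -0.26 and 0.34, Psmb9 0.32 and 0.73, Psmb10 0.16 and -0.02, and Psme1 -0.04 and 0.04. The mean of Psme1 there was 0.0013, against 0.22 in the main setting. Psmb9 was above 0 on both arrays in every one of these settings. With the flagged spots left out, none of the 5 inducible genes could be measured, and 27 members remained, 21 of them constitutive core or cap subunits. None of the 27 passed the test, against 0.758% of all genes (127 of 16751).

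**Figure D4:**
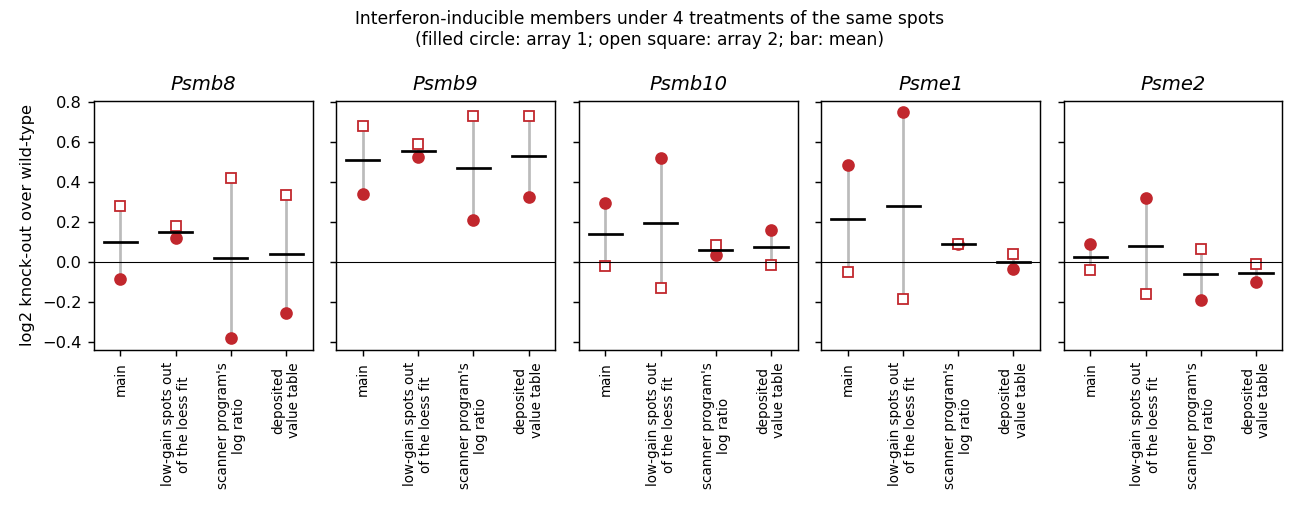
Log2 knock-out over wild-type (vertical axis) of the 5 interferon-inducible members under 4 treatments of the same spots, with a filled circle for array 1, an open square for array 2 and a bar for the mean. Psmb9 lies above 0 throughout. The wide gap of Psme1 in the main setting, 0.48 against -0.05, nearly closes in the scanner program's log ratio, at 0.09 and 0.09.

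Of the 7 alpha subunits of the core, which form its outer rings and gate, 3 were higher on both arrays, 1 lower on both and 3 had opposite signs. Psma3 gave 12.65 in wild-type and 12.90 in knock-out on array 1 and 13.89 and 14.32 on array 2 (ratios 0.24 and 0.44; mean 0.34, SE 0.13, adjusted p = 0.5). Psma4 gave 12.20 and 12.67 on array 1 and 12.98 and 13.20 on array 2 (ratios 0.47 and 0.22; mean 0.34, SE 0.14, adjusted p = 0.515). These were the highest means after Psmb9, on spots with no low-gain flag, and a second Psma4 probe gave 0.29 and 0.32. Psma1 read -0.10 and -0.09, and Psma5 read 0.30 and -0.20, the fourth widest gap between arrays among the members.

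The 4 beta subunits without an active site had means between 0.14 and 0.23. Psmb1 gave 0.07 and 0.36, both above 0 (mean 0.21, SE 0.14, adjusted p = 0.745). The other three had opposite signs. Psmb2 gave -0.24 and 0.53, the widest gap of all members, and Psmb4 gave 0.50 and -0.04. None of the 4 passed the test.

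The 6 ATPases of the cap form the ring that unfolds substrates, and their median log2 ratio was 0.01. Psmc3 read 0.25 and 0.08 (mean 0.16, SE 0.13, adjusted p = 0.817). The lowest mean of all members was that of Psmc5. Its brighter probe gave 12.78 in wild-type and 12.37 in knock-out on array 1 and 13.06 and 12.70 on array 2, with ratios of -0.41 and -0.35 (mean -0.38, SE 0.13, adjusted p = 0.419). Its other probe gave 10.12 and 10.50 on array 1 and 11.22 and 11.56 on array 2, with ratios of 0.37 and 0.33 (mean 0.35, SE 0.13, probe-fit adjusted p = 0.436). Each probe repeated its own sign on both arrays, and the signs of the probes were opposite. Neither probe carried the low-gain flag.

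The sequences of both Psmc5 probes are shown because the direction of this gene depends on which is read. The first is the dimmer probe, with the positive ratios, at chr11:106077339-106077538 on mm8. The second is the brighter one, with the negative ratios, at chr11:106078968-106079152. Their spans of 200 and 185 bases are longer than the 60 bases of a probe, so each crosses an intron in the files' own coordinates.

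Psmc5, dimmer probe: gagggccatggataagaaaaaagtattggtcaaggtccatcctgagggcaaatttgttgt

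Psmc5, brighter probe: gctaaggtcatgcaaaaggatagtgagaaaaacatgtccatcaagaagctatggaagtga

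With all probes of a gene averaged, Psmc5 read -0.01 and no longer stood apart. Of the 16 member genes with more than 1 probe past the filter, 10 had all their probe means on the same side of 0 and 6 did not: Psmc5, Psme4, Psmf1, Psmc6, Psmd12 and Psme2. The distance between the highest and the lowest probe mean of a gene was 0.74 for Psmc5, 0.62 for Psme4 and 0.48 for Psmf1, and 0.27 or less for the other 13. For comparison, the moderated SE of a single probe was 0.13 to 0.14 for the probes of these 3 genes. The highest and the lowest Psme4 probe were both dim, at 6.63 to 8.41 on the log2 scale.

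**Figure D5:**
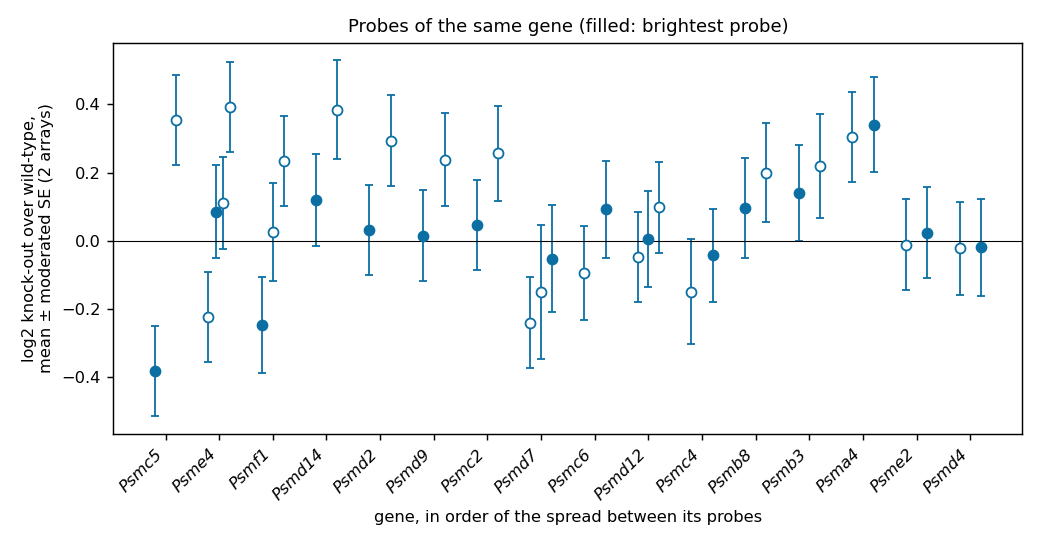
Mean log2 knock-out over wild-type with its moderated SE (vertical axis) for each probe of the 16 member genes with more than 1 probe past the filter, in order of the spread between a gene's probes. Filled points are the brightest probe of a gene. The probes of Psmc5 lie at -0.38 and 0.35, on either side of 0.

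The 11 other subunits of the cap, which bind ubiquitin chains, remove them or hold the lid together, had means between -0.18 and 0.12, with a median of 0.005. Of these, 2 were higher on both arrays, 1 lower on both and 8 had opposite signs. Psmd1, a large scaffold subunit of the cap, read -0.32 and -0.05 (mean -0.18, SE 0.14, adjusted p = 0.792). Psmd14, the enzyme that cuts ubiquitin chains off substrates, read 0.05 and 0.19 on its brightest probe (mean 0.12, SE 0.13, adjusted p = 0.891) and 0.55 and 0.22 on another. The median of the alpha subunits was 0.05, and the difference between these groups was not tested.

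Among the 3 chaperones that assemble the base of the cap, Psmd5 gave 0.15 and 0.14 (mean 0.14, SE 0.13, adjusted p = 0.847), and Psmd9 and Psmd10 had opposite signs. Of the 3 other regulators, the nuclear activator Psme3 read 0.34 and -0.07. Psme4, the PA200 activator, read 0.18 and -0.01 on its brightest probe, and its other probes had means of 0.39, 0.11 and -0.22. The Psme4 probe at 0.39 was dim, at 7.71 to 8.41 on the log2 scale. The one at -0.22 was dimmer still, at 6.63 to 6.96, with 3 of 4 channels well above background. Psmf1, an inhibitor of the core (PI31), read -0.39 and -0.11 on its brightest probe (mean -0.25, SE 0.14, adjusted p = 0.669), against means of 0.23 and 0.03 on the others. None of these 6 genes passed the test.

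The genes that work with the proteasome gave a similar count. Of 25 partners (the maturation factor Pomp, shuttle receptors, deubiquitinases, Vcp and its cofactors, the transcription factors Nfe2l1 and Nfe2l2 and ubiquitin genes), 24 were tested and 0 passed, with 1 higher and 1 lower at an unadjusted p under 0.05. Over all genes, 3.15% were higher and 5.97% lower at that level. The median log2 ratio of the 24 was -0.04. Adrm1, a ubiquitin receptor of the cap, read -0.82 and -0.30 (mean -0.56, SE 0.16, adjusted p = 0.348). Usp14, a deubiquitinase bound to the cap, read 0.65 and 0.15 (mean 0.40, SE 0.16, adjusted p = 0.505).

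Of 14 genes of the interferon-gamma pathway and class I peptide loading, 13 were tested and 0 passed, with 2 higher and 2 lower at an unadjusted p under 0.05. Over all genes, 3.15% were higher and 5.97% lower at that level. The median log2 ratio of the 13 was 0.04. Irf2, a repressor of interferon response elements, read -0.72 and -0.31 (mean -0.51, SE 0.15, adjusted p = 0.349). Of the 13, 6 were higher on both arrays (24.2% of all genes were), 3 lower on both (30.0%) and 4 had opposite signs (45.8%).

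Psmb9 and Psmb8 lie in the MHC class II region of chromosome 17 beside Tap1 and Tap2, the chains of the transporter that brings proteasome products to class I molecules. Psmb9 and Tap1 are read away from each other from a shared stretch, which is shown because both had positive ratios on both arrays. It is the plus strand between the 2 RefSeq starts, GRCm38.p6 chr17:34187331-34187555, 225 bases, with Psmb9 to the left and Tap1 to the right. Capitals mark the single match to the GC box core GGGCGG, found on the opposite strand.

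Psmb9 to Tap1: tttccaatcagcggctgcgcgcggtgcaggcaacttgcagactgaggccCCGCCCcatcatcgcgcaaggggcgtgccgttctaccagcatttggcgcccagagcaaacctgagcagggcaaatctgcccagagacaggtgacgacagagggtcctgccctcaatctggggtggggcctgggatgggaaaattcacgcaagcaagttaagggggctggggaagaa

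Tap1 gave 11.36 in wild-type and 11.73 in knock-out on array 1 and 11.27 and 11.71 on array 2. Its ratios were 0.37 and 0.45 (mean 0.41, SE 0.13, adjusted p = 0.384), on spots with no low-gain flag. Tap2 read -0.39 and -0.38 (mean -0.39, SE 0.13, adjusted p = 0.408). Tap1 was thus higher on both arrays, as were 24.2% of all genes, and Tap2 was lower on both, as were 30.0%. Neither passed the test.

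Promoters of 36 of the 43 members were found in the RefSeq promoter table. Psma8, Psmb1, Psmb2, Psmb7, Psmc3, Psmd3 and Psmd7 were not matched. Each promoter was searched on both strands for 3 motif cores and, added afterwards, the GC box core. The interferon response element core (GAAA, any 2 bases, GAAA) occurred in 4 members (Psmb3, Psmd4, Psmd9 and Psme1), or 11.1%, against 3.99% of 27025 genes. The STAT site core TTCNNNGAA occurred in 2 (Psmb8 and Psmd2), or 5.6%, against 9.55%. The antioxidant response element core TGACNNNGC occurred in 6 (Psmb5, Psmb6, Psmc6, Psmd12, Psmd9 and Psme4), or 16.7%, against 13.99%. The GC box core occurred in 22, or 61.1%, against 38.2%. In Psmd9 alone, a GC box core overlapped a match to another of these motifs, the antioxidant core. A match is a description of letters, not of a bound site.

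Among the interferon-inducible members, the first 2 searches thus matched Psmb8 and Psme1. The matches are shown in capitals with 10 bases on each side, on the plus strand of GRCm38.p6. The Psmb8 match, at chr17:34198088-34198116, begins 97 bases before the RefSeq start. The Psme1 match, at chr14:55578493-55578522, begins 9 bases after it and is read on the opposite strand.

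Psmb8: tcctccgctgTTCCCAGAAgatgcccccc

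Psme1: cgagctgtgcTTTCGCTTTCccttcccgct

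The genes with these matches did not share a direction. Psmb8 and Psme1 had opposite signs on the arrays, as given above, and of the other carriers of the interferon core Psmb3 read 0.28 and -0.002, Psmd4 0.13 and -0.17, and Psmd9 -0.04 and 0.07. Psmb9, the member with the highest mean, had no match to either interferon-related core in its window.

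Ccr7 itself lies on chromosome 11, and 8 members do too: Psmb3, Psmb6, Psmc5, Psmd3, Psmd11, Psmd12, Psme3 and Psme4. The nearest, Psmd3, has its probe 0.448 Mb from that of Ccr7 on mm8. It read -0.07 and 0.03 (mean -0.02, SE 0.13, adjusted p = 0.991). Psmb3, at 1.43 Mb, read 0.28 and -0.002 on its brightest probe, and Psme3, at 2.18 Mb, read 0.34 and -0.07. None of these 3 had the same sign on both arrays on its brightest probe, while the other Psmb3 probe read 0.01 and 0.43. Next was Psmc5, at 7.12 Mb, with -0.41 and -0.35 on its brighter probe and 0.37 and 0.33 on the other. The remaining chromosome 11 members lay 8.34 Mb or farther from the Ccr7 probe.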

How the data were processed

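The authors' scanner files give the intensity of each spot in both colours. They were made with Agilent Feature Extraction 9.5.3.1 (submitters' processing notes), and their headers name mm8 for probe positions and the same slide for both arrays. That program's log10 ratio, Cy5 against Cy3, is also in the deposited files, with background and dye corrections already made per the file headers. The deposited value table holds log2 ratios, and nothing at hand says how its low-gain spots were treated.

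From the intensities, limma 3.58.1 (R 4.3.3) applied normexp (offset 50) and loess (span 0.3, 4 iterations) with 1639 control spots at weight 0. Outlier-flagged spots were dropped and spots of a probe averaged. A probe was kept where 1 genotype was well above background on both arrays. The brightest probe stood for a gene, and all probes were fitted separately. Ratios were fitted with lmFit and eBayes (+1 where the knock-out was Cy5, -1 where it was Cy3), with Benjamini-Hochberg adjustment over all genes or probes and a two-sided threshold of 0.05. The code was tested on simulated data. Nothing says how the 12 samples map to animals, so p-values measure the spread between pools and between arrays only. Genes were named through RefSeq accessions, symbols and synonyms. Promoters are from RefSeq, GRCm38.p6.

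The members, lists and tests were chosen with earlier results of these data known. Named members were the 5 inducible genes, Psmb5, Psmb6, Psmb7, the 10 others with the largest mean of the same sign on both arrays and the 4 with the widest gap between arrays. For the partner and interferon lists the 2 genes with the largest mean difference were named. The values of 1 gene that this rule takes are left out of the text. Tap1 and Tap2 were named for their place beside Psmb9, and other genes were named after their values were seen. Alternatives were other backgrounds, normalizations, filters, probe rules and priors, the treatment of low-gain spots, the deposited tables and single arrays.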

Additional observations from a re-analysis of the deposited data

How the results depend on the processing

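The count of members past the threshold was 0 in the gene fit under all 13 alternatives and 0 in the probe fit under all 12, by limma in each case. At an unadjusted p under 0.05 the main fits had 4 genes and 7 probes. The inducible minus constitutive difference of 0.09 ranged from -0.0015 (the deposited value table) to 0.11 over the 11 alternatives that could give it, and was -0.07 without replicate 1 and 0.27 without replicate 2. With low-gain spots left out, in either way, it had no value because no inducible member was left. Of 253 values of 21 named members, 238 kept their sign and 15, from 6 members, changed it. Their lowest adjusted p was 0.258. Many of the kept signs were fixed in advance, since alternatives that change only the filter, the prior or the fit return the main ratio. Median centring and no within-array normalization also gave the same relative values, so these are not separate checks.

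With the scanner program's log ratio, Psme2 read -0.064 and Psma5 -0.042, and in the deposited value table Psme2 read -0.055 and Psma5 -0.043. Median centring and no within-array normalization moved the median of all genes to -0.17 and -0.39, and values relative to that median were -0.002 for Psmb8, -0.073 for Psme2, -0.0054 for Psmd14, -0.0042 for Psmb2 and -0.045 for Psma5 in both. With the mean of all probes, Psmf1 read 0.0039. Psmb9 kept its sign in all 11 alternatives that could give it, from 0.41 to 0.56. Several of these repeat its main value of 0.51, because they leave the ratio of its single probe unchanged. Ccr7 passed the threshold with low-gain spots left out (-0.93, adjusted p = 0.0131), with these also at weight 0 in loess (-0.92, adjusted p = 0.0181) and with an intensity trend and robust prior (-0.93, adjusted p = 0.0124). Its adjusted p ranged from 0.0124 to 1 over the alternatives. The cause was not tested.

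The genotypes are already paired within each array. With the channels fitted separately and no replicate block, 0 members passed and Ccr7 had an adjusted p of 1 by limma. The limit is the number of arrays: 1 residual degree of freedom per gene was left, and 21 of the 42 members tested were on low-gain spots.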
